A study of Mus musculus with 15 samples.

Results

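The genes described here carry the antioxidant, glutathione and metallothionein systems of the mouse: 39 genes listed by name for their role, from the Nrf2 regulator and its targets to the enzymes that remove oxidants, conjugate glutathione or bind metals. A gene counted as measured when a non-control array probe carried an accession that maps to its symbol. All 39 were on the array, of 18350 genes with a symbol there. For 38 of them the signal was well above background on each of 15 arrays, and these 38 were tested. Slc7a11, the cystine importer that feeds glutathione synthesis, was not well above background on any of the 15 arrays and was not tested.

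Hearts of 15 C57BL/6 mice were measured on Agilent 1-colour arrays, with 1 mouse to an array. Dosing began at an age of 8 to 10 weeks. Methamphetamine hydrochloride (meth) went into the abdomen once a week for 5 months, and the weekly step of 2 mg brought the dose to 40 mg/kg after 20 weeks. Saline buffered with phosphate (PBS) took the place of the drug in the weekly injections of the other mice. There were 4 meth and 4 PBS males, and 4 meth and 3 PBS females. The males came from trial 1 and trial 2, with 2 arrays per treatment in each, and the females from trial 1. Slides 1 and 2 held the trial 1 males with arrays 1 and 2 of each female group, slide 3 held the trial 2 males, and slide 4 held array 3 of the PBS females with arrays 3 and 4 of the meth females. On a given array 61.38% to 71.37% of probes stood well above background. The 75th percentile of brightness, 307 to 403 for slides 1 to 3, was 438 to 589 for slide 4. The number of arrays limits the precision of every value below.

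Nrf2, the protein of Nfe2l2, switches on many antioxidant genes when oxidants or reactive chemicals stop Keap1 from sending it to be degraded. Glutathione, a small sulfur-containing peptide, is used by glutathione peroxidases to reduce peroxides and by glutathione transferases to tag reactive molecules, while thioredoxin drives a parallel route through the peroxiredoxins. Metallothioneins are small cysteine-rich proteins that hold zinc and copper and scavenge oxidants, and in the heart, whose many mitochondria leak superoxide, these systems act side by side.

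All values below are log2 signals from which the array's own 75th percentile was subtracted, so 0 is that percentile and each step of 1 is a doubling. Differences between groups come from limma fitted over all 28358 probes tested, with the trial as a term, and a gene passed the test at an adjusted p under 0.05. The tissue label was checked first. All 8 cardiomyocyte markers were well above background on all 15 arrays, their summed signal lay between 11.54 and 12.08, and the brightest was Myl2, a light chain of ventricular myosin.

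Meth was compared with PBS within each sex, to ask which of these genes differ with the drug in male and in female hearts. In males 1 of 38 members passed the test, Mt2, which was higher, against 1.11% of all probes tested. With the replicate block, which pairs meth and PBS arrays of the same number, the male count was 0. In females 0 of 38 passed, against 0.758% of all probes. These counts are near the background and do not set the members apart. At an unadjusted p under 0.05 there were 7 members in males, against 12.8% of all probes, and 9 in females, against 11.0%. The methods' t-test gave 0 members in either sex after adjustment, with 7 in males and 5 in females before it when arrays were paired and 6 and 7 when they were not. Averaged over the sexes, meth against PBS gave 3 members, Mt2, Nfe2l2 and Hmox1, all higher, against 2.65% of all probes, and 8 members unadjusted against 15.3%. That count fell to 1 with the replicate block. It was also 1 without each of 9 single arrays, namely arrays 1 and 2 of the PBS females, array 1 of the meth females, each of the 4 male PBS arrays, and the male meth arrays numbered 2 of trial 1 and of trial 2. Without array 2 of the meth females it was 5.

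The difference between the sexes in the meth response gave 0 of 38 members with limma, against 0.138% of all probes, and 7 members unadjusted against 8.67%. The unadjusted count was unsteady: 2 with quantile normalization or normexp background correction, 11 with a median shift, 1 without array 2 of the PBS females, and 3 to 8 without any other single array. So no member's response was shown to differ between males and females. Directions were counted without a test. In females 35 of 38 members had a log2 fold change above 0, with a median of 0.11 beside 0.00 for all probes, of which 50.2% were above 0. The female count was 28 with quantile normalization (50.6% of all probes) and 38 with a median shift, which also put 66.6% of all probes above 0. Under normexp background correction it was 25, beside 68.4% of all probes, and members and all probes had the same median of 0.06. In males 18 of 38 members were above 0, with a median of -0.05 beside -0.03 for all probes, and quantile normalization turned that to 23 members and 0.02. Both comparisons use their own PBS arrays and share none.

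**Figure D1:**
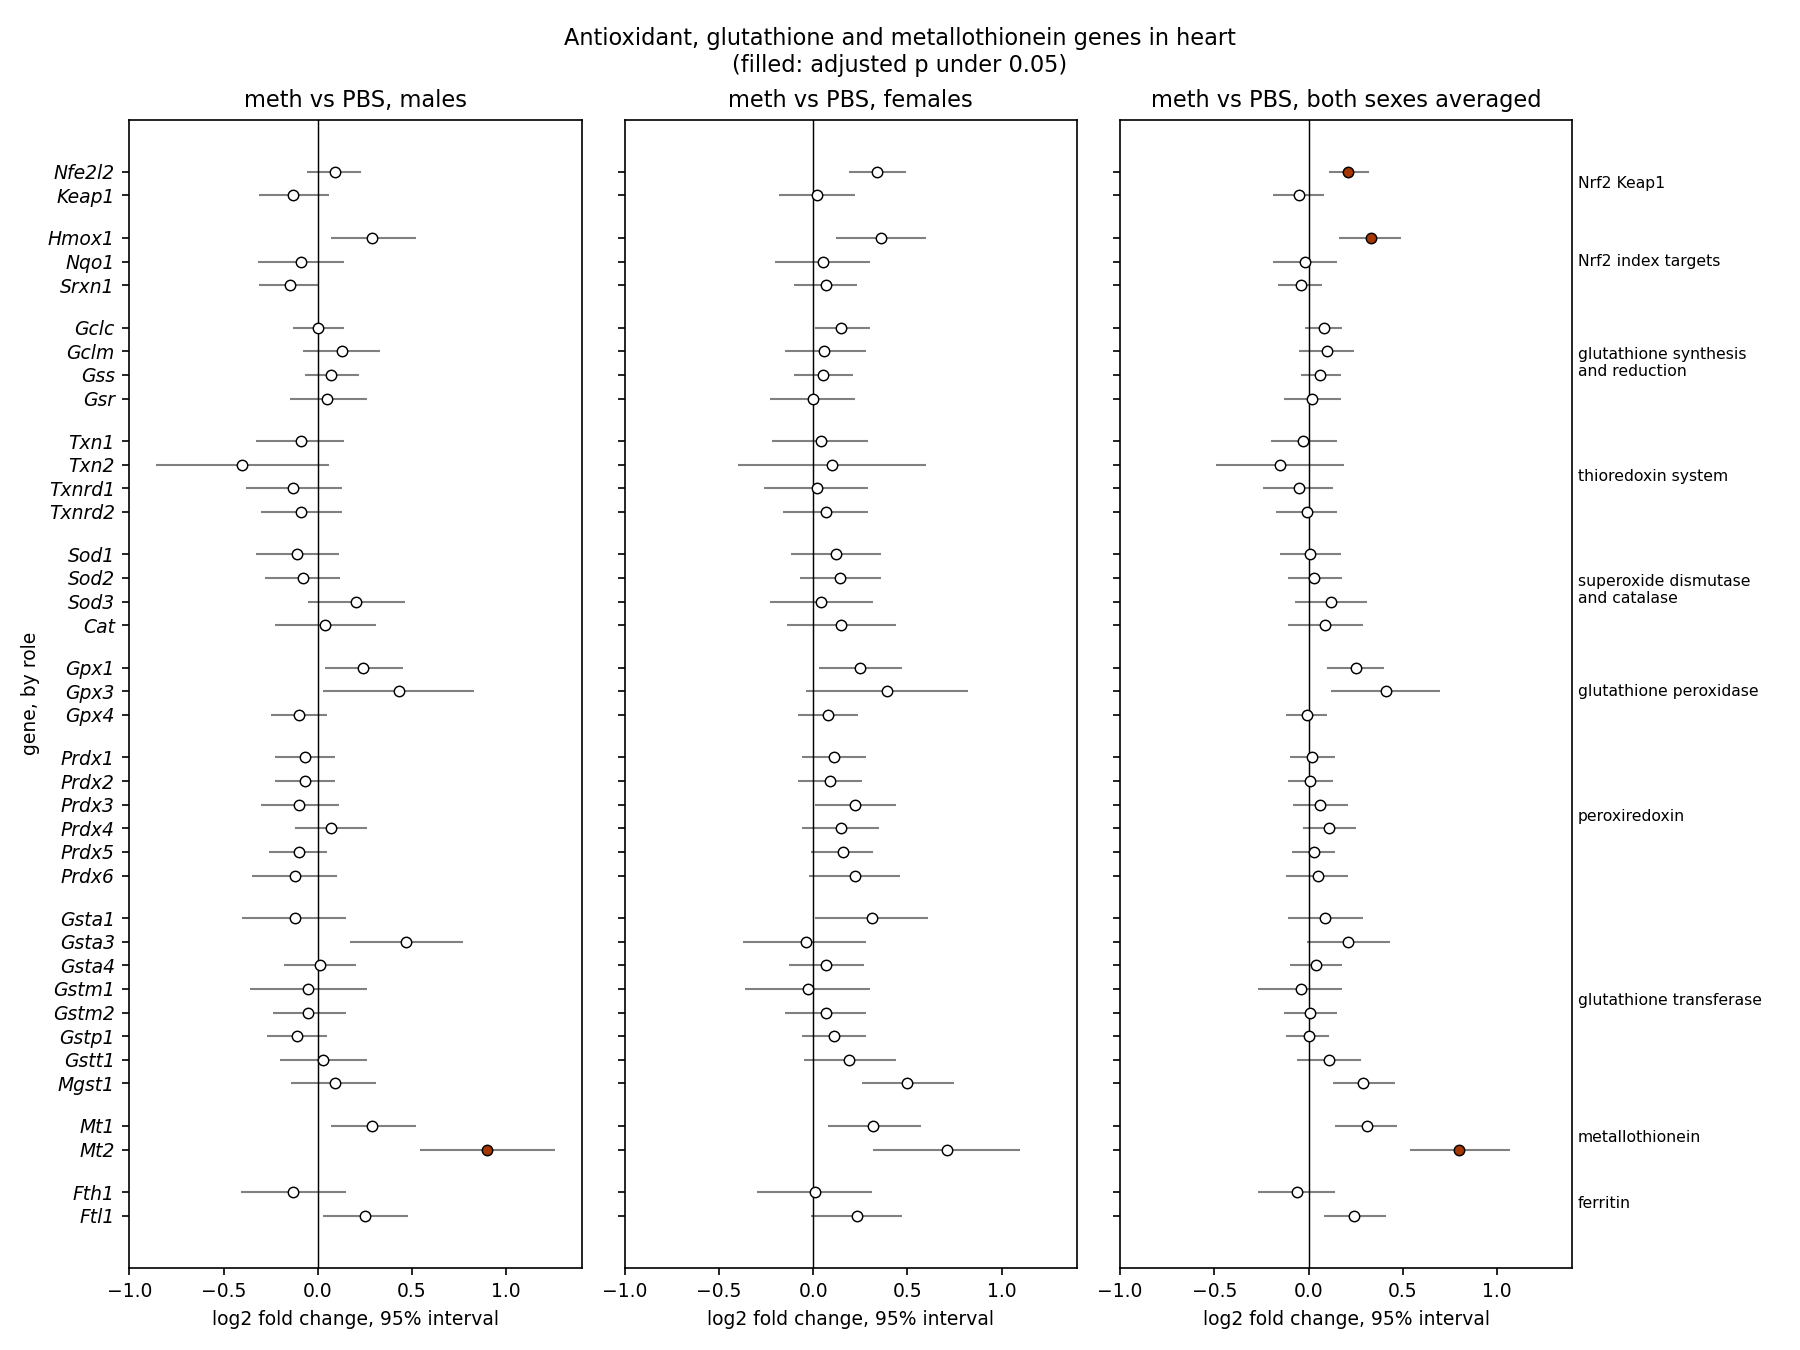
Log2 fold change of meth against PBS (x axis, bars are 95% intervals) for the 38 tested members (y axis, by role) in males, in females and averaged over the sexes; filled points passed the test. Mt2 lies farthest to the right in each panel, at 0.90, 0.71 and 0.80, and most other intervals include 0.

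Of the metallothioneins 1 of 2 passed. Mt2, which binds zinc and copper, read 3.85 and 3.72 in the trial 1 males given PBS and 3.71 and 4.33 in those of trial 2. In males given meth it read 4.91 and 4.94 in trial 1 and 4.79 and 4.57 in trial 2. All 4 meth males were above all 4 PBS males. In females it read 3.87, 3.91 and 3.46 with PBS and 4.63, 4.65, 4.40 and 4.13 with meth, and again the groups did not overlap. Mt2 rose 1.87-fold in males (log2 fold change 0.90, SE 0.17, adjusted p = 0.0259). The female value was 0.71 (SE 0.18, 1.63-fold, adjusted p = 0.105), and averaged over the sexes Mt2 rose 1.75-fold (0.80, SE 0.12, 95% interval 0.54 to 1.07, adjusted p = 0.00535). The response of males minus that of females was 0.19 with an interval of -0.34 to 0.73 (adjusted p = 0.867).

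Across slides the difference in Mt2 kept its sign: 1.06, 1.21 and 0.66 in the males of slides 1, 2 and 3, and 0.76, 0.74 and 0.80 in the females of slides 1, 2 and 4. Within males of trial 1 it was 1.14 (adjusted p = 0.071) and within those of trial 2 it was 0.66 (adjusted p = 0.291). With the slide as a fixed block the male adjusted p was 0.0158 and the female 0.0438, so the female value then passed. With the replicate block the female value was 0.81 and did not pass (adjusted p = 0.121). Over its 33 alternatives the male adjusted p ran from 0.00754 to 0.298, and the female from 0.0358 to 0.442. The male call was lost with the replicate block (0.90, adjusted p = 0.0662). It was lost without array 1 or 2 of the trial 1 PBS males (0.0806 and 0.0902), array 1 of the trial 2 PBS males (0.101), array 1 or 2 of the trial 1 meth males (0.069 and 0.0873) or array 1 of the trial 2 meth males (0.0666). The call averaged over the sexes held in all 29 alternatives, with adjusted p from 0.00143 to 0.026, the latter with the replicate block.

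Mt1, the neighbouring metallothionein, read 5.21, 5.12, 5.40 and 5.47 in males given PBS, trial 1 before trial 2, and 5.61, 5.69, 5.45 and 5.62 in males given meth. The lowest meth male lay just under the highest PBS male. Females read 5.29, 5.17 and 5.19 with PBS and 5.41, 5.60, 5.77 and 5.39 with meth, with no overlap. The meth response of Mt1 was 0.29 in males (SE 0.10, adjusted p = 0.242) and 0.32 in females (SE 0.11, adjusted p = 0.255). Averaged over the sexes it was 0.31 (SE 0.08, adjusted p = 0.0529, and 0.0989 with the replicate block). That value missed the threshold, which it passed without array 1 of the trial 2 meth males (0.0402), with quantile normalization (0.0449), with probes above background on all 15 arrays (0.0402), with genes taken as the mean over their probes and with the slide as a random block (0.0343), in a range of 0.0343 to 0.341 over its alternatives.

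The pair of promoters is shown because Mt1 and Mt2 lie next to each other and both read higher with meth. Their annotated starts are 6471 bases apart on the + strand of chromosome 8. Each line gives the 250 bases before the start as annotated, 5′ to 3′, from RefSeq on build GRCm38.p6, at chr8:94178839-94179088 for Mt1 and chr8:94172368-94172617 for Mt2. Capitals mark letters that match the metal response element core, TGCACNC or TGCGCNC, on either strand.
Mt1: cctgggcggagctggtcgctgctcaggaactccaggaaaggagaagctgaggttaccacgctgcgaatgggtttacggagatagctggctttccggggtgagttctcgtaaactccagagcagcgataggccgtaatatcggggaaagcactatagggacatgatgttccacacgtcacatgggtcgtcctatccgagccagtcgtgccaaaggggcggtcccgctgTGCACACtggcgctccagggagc
Mt2: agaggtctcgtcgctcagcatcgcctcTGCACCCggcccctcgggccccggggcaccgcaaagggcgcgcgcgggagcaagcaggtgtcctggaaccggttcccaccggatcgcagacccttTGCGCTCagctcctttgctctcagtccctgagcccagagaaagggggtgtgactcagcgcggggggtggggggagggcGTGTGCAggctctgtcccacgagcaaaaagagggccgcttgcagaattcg
Mt1 holds 1 such match, which begins 23 bases before the start, and Mt2 holds 3, the farthest beginning 223 bases before it. These letters occur in 21.4% of 32851 promoter windows of the same length, so a match is a description and not a site.

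Of the 39 members, 33 were in the promoter table, and Hmox1, Gclc, Gsr, Sod3, Prdx6 and Gsta4 were not. The metal response letters occurred in 9 of the 41 windows of these genes and so in 8 of the 33, the metallothioneins with Srxn1, Gstm1, Gclm, Gstt1, Txnrd2 and Prdx4. Letters of the antioxidant response element core, TGACNNNGC or TGAGNNNGC on either strand, occurred in 13 of the 41 windows, against 23.0% of all windows, each in another gene. Among these genes, some with more than 1 window, were Nfe2l2, Mgst1, Gsta3, Srxn1, Gclm and Mt2.

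**Figure D2:**
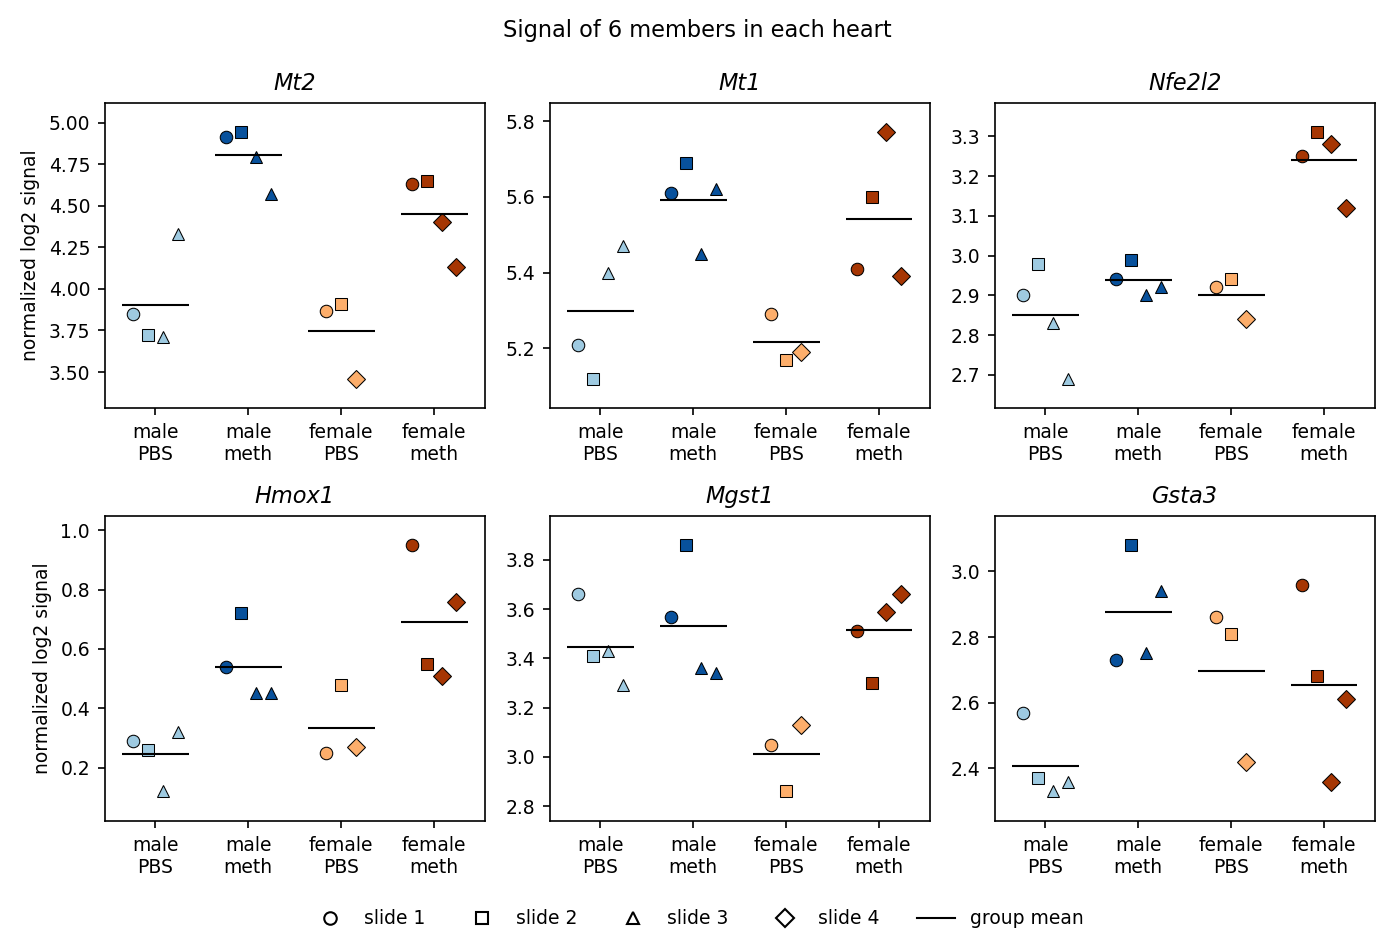
Normalized log2 signal (y axis) of 6 members in each heart, by group (x axis); each point is an array, its shape gives the slide and the bar is the group mean. Mt2 and Hmox1 are higher in every meth array than in any PBS array of the same sex, Gsta3 in males and Nfe2l2, Mgst1 and Mt1 in females.

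Mt1 and Mt2 moved together over the 15 hearts. Pearson's r of their signals was 0.80 (permutation p = 0.00058) and Spearman's rho 0.77 (permutation p = 0.00129), the only relation computed. Without array 2 of the trial 1 meth males and array 3 of the meth females, farthest from the median of Mt1, r was 0.83 over 13 arrays. Within the 8 males r was 0.85 (exact permutation p = 0.00925), and within the 7 females 0.74 (exact permutation p = 0.0548). After each array's group mean was subtracted, r was 0.37 (permutation p = 0.174), so a relation within groups was not shown.

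**Figure D3:**
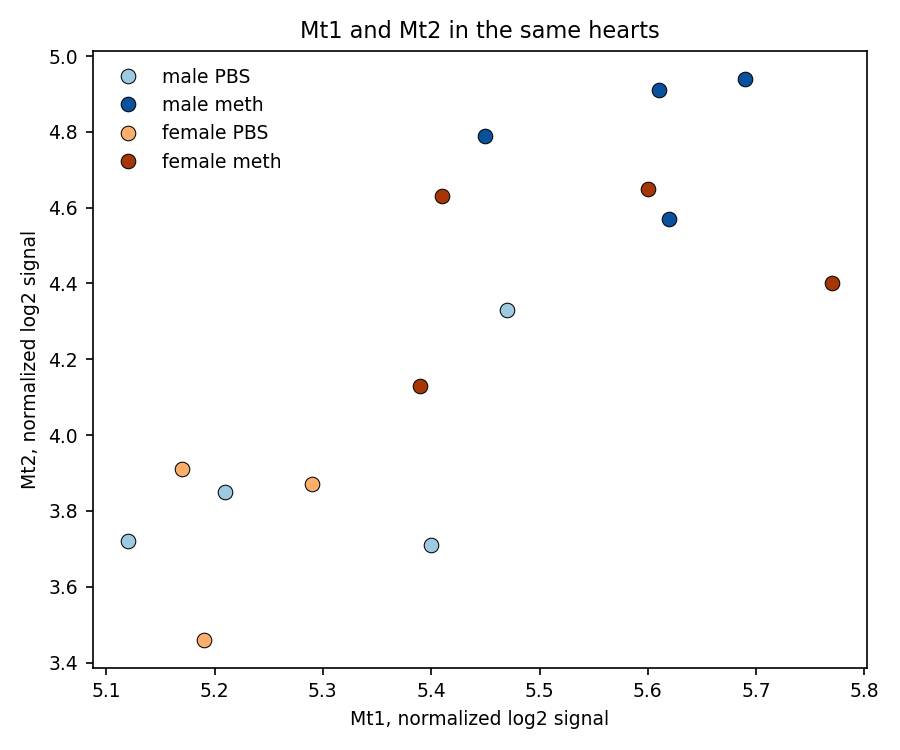
Normalized log2 signal of Mt2 (y axis) against Mt1 (x axis) in the same 15 hearts, coloured by group. PBS hearts lie toward the lower left, with Mt2 from 3.46 to 4.33, and meth hearts toward the upper right, with Mt2 from 4.13 to 4.94. They overlap on both axes: array 2 of the trial 2 PBS males (Mt1 5.47, Mt2 4.33) exceeds array 4 of the meth females (5.39, 4.13).

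The Nrf2 switch itself came next. Nfe2l2, which encodes Nrf2, read 2.90, 2.98, 2.83 and 2.69 in males given PBS and 2.94, 2.99, 2.90 and 2.92 in males given meth, which overlapped. Females read 2.92, 2.94 and 2.84 with PBS and 3.25, 3.31, 3.28 and 3.12 with meth. All 4 meth females were above every other heart. The log2 fold change was 0.34 in females (SE 0.07, 1.27-fold, adjusted p = 0.0515, just over the threshold) and 0.09 in males (SE 0.07, adjusted p = 0.638). The difference between the sexes was -0.25 (SE 0.10, unadjusted p = 0.0218, adjusted p = 0.532) and did not pass.

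Averaged over the sexes Nfe2l2 rose 1.16-fold (0.21, SE 0.05, adjusted p = 0.0392). That call was lost with the replicate block (0.23, adjusted p = 0.0527), without slide 4 (0.0562, an alternative chosen after the values were seen), with a median shift (0.0734), with normexp background correction (0.238), with no filter on dim probes (0.0927) and with no trial term (0.078). It was also lost without each single array except array 4 of the meth females and array 1 of the trial 1 meth males, where the left-out adjusted p was 0.0546 to 0.091. In females the difference was 0.32, 0.37 and 0.36 on slides 1, 2 and 4. The female value passed with the slide as a fixed block (0.0267) or a random block (0.0173), with probes above background on all 15 arrays (0.0421), with the mean over its probes and with the trial taken from the source name (0.0319), in a range of 0.0173 to 0.442 over its alternatives. With the replicate block it was 0.38 and did not pass (adjusted p = 0.0773). The averaged range was 0.0135 to 0.238. A second, dimmer Nfe2l2 probe gave 0.37 in females (adjusted p = 0.0372) and 0.23 on average (adjusted p = 0.0300), so the probes fell on opposite sides of the threshold in females.

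The Nfe2l2 promoter is shown since the gene passed the test and its own promoter holds a match to the antioxidant response element letters. It is the 250 bases before the annotated start at chr2:75704664-75704913, - strand, RefSeq on GRCm38.p6, and capitals mark the match, which begins 240 bases before the start.
Nfe2l2: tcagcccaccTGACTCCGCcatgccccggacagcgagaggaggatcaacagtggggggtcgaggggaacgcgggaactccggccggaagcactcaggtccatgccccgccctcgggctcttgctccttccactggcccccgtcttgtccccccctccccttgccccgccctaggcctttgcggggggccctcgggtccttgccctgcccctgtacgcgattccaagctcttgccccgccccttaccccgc

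Keap1, the adaptor that marks Nrf2 for degradation, read 2.37, 2.40, 2.69 and 2.55 in PBS males and 2.37, 2.32, 2.41 and 2.40 in meth males, and 2.49, 2.34 and 2.61 in PBS females and 2.38, 2.45, 2.69 and 2.45 in meth females. Groups overlapped in both sexes. For males the log2 fold change was -0.13, and for females 0.02 (adjusted p = 0.58 and 0.976).

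Hmox1 encodes the inducible heme oxygenase, a standard readout of Nrf2. It read 0.29, 0.26, 0.12 and 0.32 in PBS males and 0.54, 0.72, 0.45 and 0.45 in meth males. In females the values were 0.25, 0.48 and 0.27 with PBS and 0.95, 0.55, 0.51 and 0.76 with meth. Every meth heart was above every PBS heart of its sex. Hmox1 rose 1.25-fold averaged over the sexes (0.33, SE 0.08, adjusted p = 0.0429), while the values within males (0.29, SE 0.10, adjusted p = 0.243) and within females (0.36, SE 0.11, adjusted p = 0.193) did not pass. The averaged call was lost with the replicate block (0.31, adjusted p = 0.111), with normexp background correction, where the value was 0.20 (adjusted p = 0.691), with no filter on dim probes (0.0861) and with no trial term (0.0587). It was also lost without slide 4 (0.0986) and without each single array except arrays 2 and 3 of the meth females (0.051 to 0.112). Over all alternatives its adjusted p ran from 0.0222 to 0.691. By slide the difference was 0.25, 0.45 and 0.23 in males and 0.70, 0.07 and 0.37 in females.

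Of the other index targets Slc7a11 was not tested, and neither Nqo1 nor Srxn1 passed in any comparison. Nqo1, a quinone reductase, read 2.13, 2.11, 2.17 and 2.15 in PBS males against 2.02, 1.98, 2.07 and 2.13 in meth males, and 1.97, 1.81 and 1.44 in PBS females against 1.78, 1.98, 1.78 and 1.62 in meth females. Its log2 fold changes were -0.09 and 0.05 in males and females. Srxn1, the sulfiredoxin that repairs over-oxidized peroxiredoxins, read 1.59, 1.58, 1.69 and 1.85 in PBS males against 1.47, 1.58, 1.55 and 1.50 in meth males. In females it read 1.63, 1.45 and 1.42 with PBS and 1.54, 1.54, 1.62 and 1.57 with meth. The Srxn1 groups overlapped in both sexes, with log2 fold changes of -0.15 for males and 0.07 for females (adjusted p = 0.402 and 0.847). The dimmer Srxn1 probes had the opposite sign in females (-0.03 and -0.02).

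Glutathione synthesis and reduction involve 4 members: Gclc and Gclm, the subunits of the rate-limiting ligase, Gss, which finishes the peptide, and Gsr, which restores its reduced form. None passed in any comparison, and their log2 fold changes ran from 0.00 to 0.13 in males and 0.00 to 0.15 in females. Gclc read 0.72, 0.72 and 0.83 in PBS females and 0.90, 0.87, 0.93 and 0.94 in meth females, without overlap. Males read 0.82, 0.77, 0.76 and 0.76 with PBS and 0.90, 0.91, 0.63 and 0.68 with meth, where both trial 1 meth males were above and both trial 2 meth males below all PBS males. The female log2 fold change of Gclc was 0.15 (SE 0.07, unadjusted p = 0.0426, adjusted p = 0.428), and the male value was 0.00 (adjusted p = 0.987).

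Glutathione peroxidases spend glutathione to reduce peroxides. Gpx1, the abundant cytosolic form, read 4.94, 4.73, 4.49 and 4.58 in PBS males and 5.03, 5.29, 4.74 and 4.67 in meth males, and 4.71, 4.76 and 4.91 in PBS females and 5.14, 4.83, 5.07 and 5.12 in meth females. Within each trial both meth males were above both PBS males. Gpx3, the secreted form, read 4.28, 4.31, 4.77 and 4.67 in PBS males and 4.68, 4.97, 5.24 and 4.86 in meth males. Females read 4.24, 4.00 and 4.80 for Gpx3 with PBS and 4.51, 4.45, 4.88 and 5.12 with meth. In males Gpx3 too was higher with meth within each trial, and the trial 2 PBS hearts overlapped the trial 1 meth hearts. The reverse order held for Nqo1 and the brightest Txnrd2 probe, with both meth males below both PBS males in each trial. Orderings of this kind are no test, and the share of all probes with them was not computed.

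The log2 fold change of Gpx1 was 0.24 in males and 0.25 in females (adjusted p = 0.292 and 0.374), and of Gpx3 0.43 and 0.39 (adjusted p = 0.35 and 0.51). Averaged over the sexes they were 0.25 for Gpx1 (SE 0.07, adjusted p = 0.0906) and 0.41 for Gpx3 (SE 0.14, adjusted p = 0.15), neither past the threshold. Gpx1 passed without array 2 of the meth females (0.0421) or with a median shift (0.048), and Gpx3 without array 3 of the PBS females (0.0453) with the slide as a fixed block (0.0358) or with the trial taken from the source name (0.0372). Gpx4, which protects membrane lipids, was at -0.10 in males and 0.08 in females.

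The thioredoxin system, with Txn1 and Txnrd1 in the cytosol and Txn2 and Txnrd2 in mitochondria, gave 0 of 4 members past the threshold with limma. In males 0 of 4 had a log2 fold change above 0 (-0.40 to -0.09) by their brightest probes under every scaling tried. In females 4 of 4 did (0.02 to 0.10), a count that fell to 1 with normexp background correction and 2 with quantile normalization. A second Txnrd2 probe had the opposite sign in both sexes, at 0.28 in males and -0.03 in females (adjusted p = 0.61 and 0.981). Txn2 was at -0.40 in males (adjusted p = 0.473), where PBS hearts ranged from 3.49 to 3.71. Meth males read 3.50 and 3.64 in trial 1 and 2.39 and 3.39 in trial 2, so array 1 of trial 2 stood far below the others.

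Peroxiredoxins reduce peroxides with electrons from thioredoxin. In males 1 of 6 had a log2 fold change above 0 (-0.12 to 0.07), and 3 of 6 with quantile normalization. In females 6 of 6 did (0.09 to 0.22), with 4 under normexp background correction and 5 under quantile normalization. Those counts use the brightest probes; in females dimmer probes of Prdx2 and Prdx6 were at -0.03 and -0.16, and in males those of Prdx6 were at 0.02 and -0.88. Prdx3, the mitochondrial form, read 4.74, 4.58 and 4.81 in PBS females and 4.80, 4.90, 5.17 and 4.88 in meth females, and 4.98, 4.89, 4.88 and 4.86 in PBS males and 4.85, 4.92, 4.59 and 4.87 in meth males. Groups overlapped in both sexes, and its log2 fold change was 0.22 in females (unadjusted p = 0.0446, adjusted p = 0.436) and -0.10 in males (adjusted p = 0.726). For Prdx3, Prdx5 and Prdx6 the difference between the sexes was -0.32, -0.26 and -0.34, each with an unadjusted p under the threshold and an adjusted p of 0.546 to 0.567. The dimmer Prdx6 probes gave -0.09 (SE 0.10) and -0.72 (SE 0.68) for it.

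Superoxide dismutases turn superoxide into hydrogen peroxide, which catalase (Cat) then breaks down. None of the 4 members, Sod1, Sod2, Sod3 and Cat, passed in any comparison. Their log2 fold changes were -0.11 to 0.20 in males, and 0.04 to 0.15 in females, where 4 of 4 were above 0 but 3 of 4 with normexp background correction.

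Glutathione transferases tag electrophiles for export. Mgst1, a membrane form that also reduces lipid peroxides, read 3.05, 2.86 and 3.13 in PBS females and 3.51, 3.30, 3.59 and 3.66 in meth females, without overlap. Males read 3.66, 3.41, 3.43 and 3.29 with PBS and 3.57, 3.86, 3.36 and 3.34 with meth. Meth females thus lay in the range of the males, and PBS females below all of them. In females the Mgst1 log2 fold change was 0.50 (SE 0.11, 1.42-fold, adjusted p = 0.0686, and 0.143 with the replicate block) and in males 0.09 (SE 0.10, adjusted p = 0.796), with a difference between the sexes of -0.42 (SE 0.15, adjusted p = 0.512). On slides 1, 2 and 4 the female difference was 0.46, 0.44 and 0.49. The female value passed with the slide as a fixed block (0.0494) or a random block (0.0319), with a median shift (0.0404), with probes above background on all 15 arrays (0.0477) and with the mean over its probes. A second Mgst1 probe gave 0.46 in females (adjusted p = 0.0469) and 0.30 on average (adjusted p = 0.0302), both past the threshold, where the brighter probe gave 0.29 on average (adjusted p = 0.0688, and 0.0389 without array 2 of the meth females).

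Gsta3, an alpha-class transferase, came nearest the threshold among the transferases in males. It read 2.57, 2.37, 2.33 and 2.36 in PBS males and 2.73, 3.08, 2.75 and 2.94 in meth males, with no overlap. Females read 2.86, 2.81 and 2.42 with PBS and 2.96, 2.68, 2.36 and 2.61 with meth, which overlapped. The log2 fold change of Gsta3 was 0.47 in males (SE 0.14, unadjusted p = 0.00497, adjusted p = 0.16). For females it was -0.04 (adjusted p = 0.962), and the difference between the sexes was 0.51 (SE 0.20, adjusted p = 0.535). By slide the male values were 0.16, 0.71 and 0.50, and the male value passed with the slide as a fixed block (0.0486) or with the mean over its probes. A second Gsta3 probe gave 0.48 in males (adjusted p = 0.0352), again on the other side of the threshold. The remaining 6 transferases, Gsta1, Gsta4, Gstm1, Gstm2, Gstp1 and Gstt1, lay between -0.12 and 0.03 in males and -0.03 and 0.31 in females by their brightest probes.

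Ferritin stores iron that would otherwise feed oxidant chemistry. Its light chain Ftl1 read 3.91, 3.98, 3.60 and 3.65 in PBS males and 4.01, 4.20, 4.00 and 3.94 in meth males, and 4.01, 3.96 and 4.13 in PBS females and 4.29, 3.97, 4.27 and 4.52 in meth females. Within each trial both meth males were above both PBS males, and in females 3 of 4 meth hearts were above all PBS hearts. The order within trials ran the other way for Nqo1 and the brightest Txnrd2 probe, and it is no test. The log2 fold change of Ftl1 was 0.25 in males and 0.23 in females (adjusted p = 0.322 and 0.483) and 0.24 averaged over the sexes (SE 0.08, adjusted p = 0.127, but 0.0323 without array 2 of the meth females). The heavy chain Fth1 was at -0.13 in males and 0.01 in females.

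All meth hearts lay above all PBS hearts for 3 members in males, Hmox1, Gsta3 and Mt2, against 4.68% of all probes, and below them for 0 members against 5.17%. In females 8 members lay above, Nfe2l2, Hmox1, Gclc, Gclm, Prdx5, Mgst1, Mt1 and Mt2, against 3.15% of all probes, and 0 below against 5.92%. In both sexes at once 2 members did, Hmox1 and Mt2, against 0.480% of all probes. Such an ordering is no test, and limma passed 1 of these members within a sex.

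Male and female PBS hearts were compared to see how the members stand without the drug. With limma 0 of 38 passed, against 0.480% of all probes, and 11 were under an unadjusted p of 0.05 against 15.2%. The latter count was 3 with quantile normalization, 5 with normexp background correction, 21 with a median shift and 6 to 12 with single arrays left out, the lowest without array 1 of the trial 1 PBS males. The fitted difference of males minus females, with the trial as a term, was above 0 for 31 of 38 members (median 0.16 beside -0.03 for all probes). It was above 0 for 28 with no trial term (0.11 beside -0.02), 27 with quantile normalization (0.07 beside 0.00), 35 with a median shift (0.28 beside 0.09) and 30 with normexp background correction (0.11 beside 0.05). Mgst1 came nearest the threshold (0.57, SE 0.12, adjusted p = 0.0747), with all 4 PBS males above all 3 PBS females. It passed with a median shift (0.026), with the slide as a fixed block (0.0348) or a random block (0.0257), with the mean over its probes and at its second probe (0.56, adjusted p = 0.0353). Sod2, the mitochondrial superoxide dismutase, was at 0.39 (SE 0.11, adjusted p = 0.144), Cat at 0.38 (adjusted p = 0.258) and Nqo1 at 0.36 (SE 0.13, adjusted p = 0.21), each higher in every PBS male than in any PBS female. So were Txnrd1, Prdx3, Prdx6, Gsta1 and Gsta4 by their brightest probes. That ordering is no test either, and its share of all probes was not computed. The superoxide dismutase and catalase genes were above 0 in 4 of 4 and the peroxiredoxins in 5 of 6 under every scaling tried. Among markers, Alb (-4.70), Fgb (-2.57) and Scgb1a1 (-5.25) were lower in PBS males past the threshold. No cardiomyocyte or fat marker passed, and 7 of 8 cardiomyocyte markers had a fitted difference above 0 (median 0.18). Brown fat markers had a fitted median of 1.17 (5 of 6 above 0, 4 with an unadjusted p under 0.05) and red blood cell markers of 0.38 (5 of 5 above 0). White fat markers had a fitted median of 0.87, but the mean of their sums was 4.89 in PBS males and 4.99 in PBS females, so these measures differed in sign. Their part in the values of the members was not tested. The PBS females also served as controls of the female meth response, so the values of these comparisons are not independent.

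Other genes of the same systems came from 7 pathway lists with 92 genes. Of these, 89 were on the array and 88 were tested. Ggt1, which breaks glutathione down at the cell surface, was not well above background in any heart. In males 6 of 88 rose and 0 fell, in females 1 rose and 0 fell, and averaged over the sexes 7 rose and 1 fell, while in the comparison of the responses of the sexes 0 passed with limma (8 unadjusted). The share of all probes past the threshold was 1.11% in males, 0.758% in females and 2.65% on average, and the female count of 1 is near that background. At an unadjusted p under 0.05 there were 14 in males, 15 in females and 20 on average, beside 12.8%, 11.0% and 15.3% of all probes. The median log2 fold change was 0.02 in males, 0.10 in females and 0.05 on average, beside -0.03, 0.00 and -0.01 for all probes.

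Osgin1, an Nrf2 target that restrains cell growth under oxidative stress, had the lowest p of these genes in both sexes. It read -0.85, -0.83, -0.90 and -0.78 in PBS males and -0.41, -0.17, -0.27 and 0.00 in meth males. Females read -0.66, -0.73 and -0.73 with PBS and -0.16, -0.25, -0.12 and -0.04 with meth. No PBS heart of either sex reached the lowest meth heart. Osgin1 rose 1.54-fold in males (0.63, SE 0.08, adjusted p = 0.0035), 1.48-fold in females (0.56, SE 0.09, adjusted p = 0.0161) and 1.51-fold on average (0.59, SE 0.06, adjusted p = 0.000439). With the replicate block the male adjusted p was 0.0246, the averaged 0.0155 and the female 0.056. The female call was also lost without array 1 (0.0569) or array 2 (0.093) of the PBS females, without slide 4 (0.49, 0.176) and with normexp background correction (0.07). Over all alternatives the adjusted p ran from 0.00171 to 0.242 in males, 0.00844 to 0.442 in females and 0.000197 to 0.0155 on average. By slide the difference was 0.44, 0.66 and 0.70 in males and 0.50, 0.48 and 0.65 in females. Within trial 1 males it was 0.55 (adjusted p = 0.0962), and within trial 2 males 0.70 (adjusted p = 0.0316). A second Osgin1 probe gave 0.69 in males (adjusted p = 0.083), 0.66 in females (0.131) and 0.68 on average (0.0134).

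The Osgin1 promoter is shown because no other gene of these lists rose in both sexes. It is the 250 bases before the annotated start at chr8:119436897-119437146, + strand, RefSeq on GRCm38.p6. Capitals mark its match to the antioxidant response element letters, which begins 99 bases before the start and reads on the other strand.
Osgin1: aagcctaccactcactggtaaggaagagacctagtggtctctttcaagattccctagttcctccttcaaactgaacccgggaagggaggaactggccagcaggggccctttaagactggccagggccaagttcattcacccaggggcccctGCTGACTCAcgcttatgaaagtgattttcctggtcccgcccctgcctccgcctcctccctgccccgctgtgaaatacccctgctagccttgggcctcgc

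Among glutathione enzymes outside the 39 members, Gpx2, the gastrointestinal peroxidase, read -2.28, -2.38, -2.23 and -2.14 in PBS males and -1.33, -0.78, -1.65 and -1.20 in meth males. Every meth male stood above every PBS male. Females read -2.28, -2.10 and -2.61 with PBS and -2.19, -2.24, -2.41 and -2.17 with meth, which overlapped. Gpx2 rose 2.03-fold in males (1.02, SE 0.16, adjusted p = 0.00922, and 0.0496 with the replicate block), and the female value was 0.07 (adjusted p = 0.942). The difference between the sexes was 0.95 (SE 0.23, unadjusted p = 0.00146) and did not pass (adjusted p = 0.286). By slide the male values were 0.96, 1.60 and 0.76, and normexp background correction gave 0.63 (adjusted p = 0.185, with 0.00418 to 0.277 over all alternatives). The averaged value (0.55, adjusted p = 0.0299) was lost with the replicate block (0.0729), without slide 4 (0.114) and without array 1 or 3 of the PBS females, array 1 or 4 of the meth females, array 1 or 2 of the trial 1 PBS males, array 1 of the trial 2 PBS males or array 2 of the trial 2 meth males (0.0529 to 0.0657).

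Gstt2, a theta-class transferase, read 0.46, 0.39, 0.09 and 0.11 in PBS males and 0.93, 0.86, 0.94 and 0.98 in meth males, well apart. It rose 1.59-fold in males (0.67, SE 0.12, adjusted p = 0.0228, and 0.0456 with the replicate block) and 1.41-fold on average (0.50, SE 0.09, adjusted p = 0.0124), with 0.33 in females (adjusted p = 0.354). The male call was lost without array 2 of the trial 1 PBS males, either trial 2 PBS male or either trial 2 meth male (0.0664 to 0.0918). Gstt3, of the same class, passed in males by a narrow margin (0.31, SE 0.07, adjusted p = 0.049) with groups that overlapped, and the call was lost with the replicate block (0.0838) and without each single array except array 4 of the meth females (0.051 to 0.162). Mgst2, a microsomal transferase, rose 1.88-fold on average (0.91, SE 0.20, adjusted p = 0.0322, and 0.0959 with the replicate block), with -1.76, -2.33, -2.67 and -2.53 in PBS males against -1.41, 0.00, -1.34 and -1.67 in meth males. Its male value was 1.22 (adjusted p = 0.0521), and 0.36, 2.33 and 1.1 by slide. The averaged Mgst2 call was lost without slide 4 (0.104), any of the 3 PBS females, array 1 or 4 of the meth females, array 2 of the trial 1 PBS males, either trial 2 PBS male or array 1 of the trial 2 meth males (0.0568 to 0.0788).

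Ephx1, the epoxide hydrolase among the Nrf2 targets, read 1.55, 1.61, 1.48 and 1.39 in PBS males and 2.03, 2.05, 2.23 and 2.04 in meth males, and 1.63, 1.64 and 1.88 in PBS females and 2.17, 1.79, 2.01 and 2.34 in meth females. Male groups were apart, and 1 meth female lay below 1 PBS female. Ephx1 rose 1.49-fold in males (0.58, SE 0.11, adjusted p = 0.0322, and 0.055 with the replicate block) and 1.38-fold on average (0.47, SE 0.08, adjusted p = 0.0117). The male call was lost without each of the 8 male arrays in turn (0.0605 to 0.119). A second Ephx1 probe passed in males (0.59, adjusted p = 0.0115). In females 10 of 12 genes of this target list were above 0, with a median of 0.16 and 9 of 12 under both quantile normalization and normexp background correction. In males 9 of 12 were above 0, with a median of 0.06. Aox1, an aldehyde oxidase, was at 0.35 in females (adjusted p = 0.121).

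Maff, a small Maf protein that partners Nrf2, was the single gene of 10 partners and repressors to pass. It rose 1.26-fold on average (0.34, SE 0.08, adjusted p = 0.0382, and 0.0453 with the replicate block), and was at 0.28 in males and 0.40 in females. The call was lost with a median shift (0.0542) and without each single array except array 1 of the PBS females, array 3 of the meth females and array 2 of the trial 2 meth males (0.0545 to 0.0831). In females 10 of 10 genes of this list were above 0, but 7 with quantile normalization and 8 with normexp background correction. In males 5 of 10 were above 0.

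Of 9 oxidant sources 1 passed in males, 0 in females with limma (0 unadjusted) and 1 on average, each time Xdh, which makes uric acid and oxidants. The median of the list was 0.10 in males and 0.04 in females. Xdh rose 1.31-fold in males (0.39, SE 0.08, adjusted p = 0.041, and 0.0396 with the replicate block) and 1.20-fold on average (0.26, SE 0.06, adjusted p = 0.0408). The male call was lost without each of the 8 male arrays and without array 1 or 2 of the PBS females (0.0564 to 0.133). The averaged call was lost with the mean over both probes, with quantile normalization (0.0539), without slide 4 (0.0594) and without each single array except array 3 of the PBS females, arrays 1 and 2 of the meth females and array 2 of the trial 1 PBS males (0.0545 to 0.11). A second Xdh probe gave 0.55 in males (adjusted p = 0.0987). Nox4, a heart NADPH oxidase, was at 1.11 in males (SE 0.28, adjusted p = 0.0953), with -1.59 in array 1 of the trial 2 meth males and -3.02 to -3.38 in the other meth males.

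Of 14 metal-handling genes, 1 passed: Tfrc, the transferrin receptor that brings iron into cells. It fell on average (-0.42, SE 0.09, adjusted p = 0.0382, and 0.0368 with the replicate block), with -0.41 in males and -0.43 in females. Females read 0.18, 0.08 and 0.23 with PBS and -0.37, -0.29, -0.14 and -0.25 with meth, without overlap. Males read 0.64, 0.47, 0.92 and 0.73 with PBS and 0.36, -0.26, 0.70 and 0.31 with meth, which overlapped. The Tfrc call was lost without slide 4 (0.12), with a median shift (0.0594) and without each single array except array 3 of the meth females, both trial 1 meth males and array 1 of the trial 2 meth males (0.0547 to 0.0909). Mtf1, the zinc sensor that binds metal response elements, was at -0.14 in males and 0.20 in females (adjusted p = 0.456 and 0.355). A second Mtf1 probe had the opposite sign in females (-0.21, adjusted p = 0.305), so no direction is given for Mtf1 there. Slc30a1, a zinc exporter, was at 0.16 and 0.22 (adjusted p = 0.552 and 0.481).

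Genes that supply NADPH, the reductant of both systems, gave 0 of 8 past the threshold with limma in every comparison, and 0 at an unadjusted p under 0.05 in either sex. Among 15 genes for glutaredoxins, thioredoxin relatives and sulfoxide repair 0 passed with limma (2 unadjusted in each sex) by their brightest probes. A dimmer probe of Msrb3, a methionine sulfoxide reductase named after its values were seen, passed in males (-0.29, adjusted p = 0.0228), where its brightest gave -0.06. Sesn1, a sestrin that aids peroxiredoxin repair, was at 0.30 in males and 0.31 in females (adjusted p = 0.321 and 0.412), and its dimmest probe passed on average (0.31, adjusted p = 0.0393).

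The pathway calls also depended on the processing. With normexp background correction Osgin1 kept its male and averaged calls, and every other pathway call was lost. The adjusted p was then 0.185 for Gpx2, 0.0635 for Gstt2, 0.2 for Gstt3, 0.253 for Ephx1 and 0.626 for Xdh in males. On average it was 0.198 for Gpx2, 0.0501 for Gstt2, 0.144 for Mgst2, 0.114 for Ephx1, 0.17 for Maff, 0.172 for Tfrc and 0.413 for Xdh. With no filter on dim probes the averaged calls of Gpx2, Mgst2, Maff, Tfrc and Xdh were lost (0.0569, 0.0586, 0.0783, 0.0759 and 0.0888), as were the male calls of Ephx1, Gstt3 and Xdh (0.0664, 0.12 and 0.0915). With no trial term the averaged calls of Mgst2, Maff, Tfrc and Xdh were lost (0.0787, 0.0787, 0.108 and 0.0561) and the male call of Gstt3 (0.234). A median shift also ended the call of Gstt3 (0.155), as did probes above background on all 15 arrays (0.0537). The methods' t-test, paired or not, kept none of the pathway calls within a sex.

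**Figure D4:**
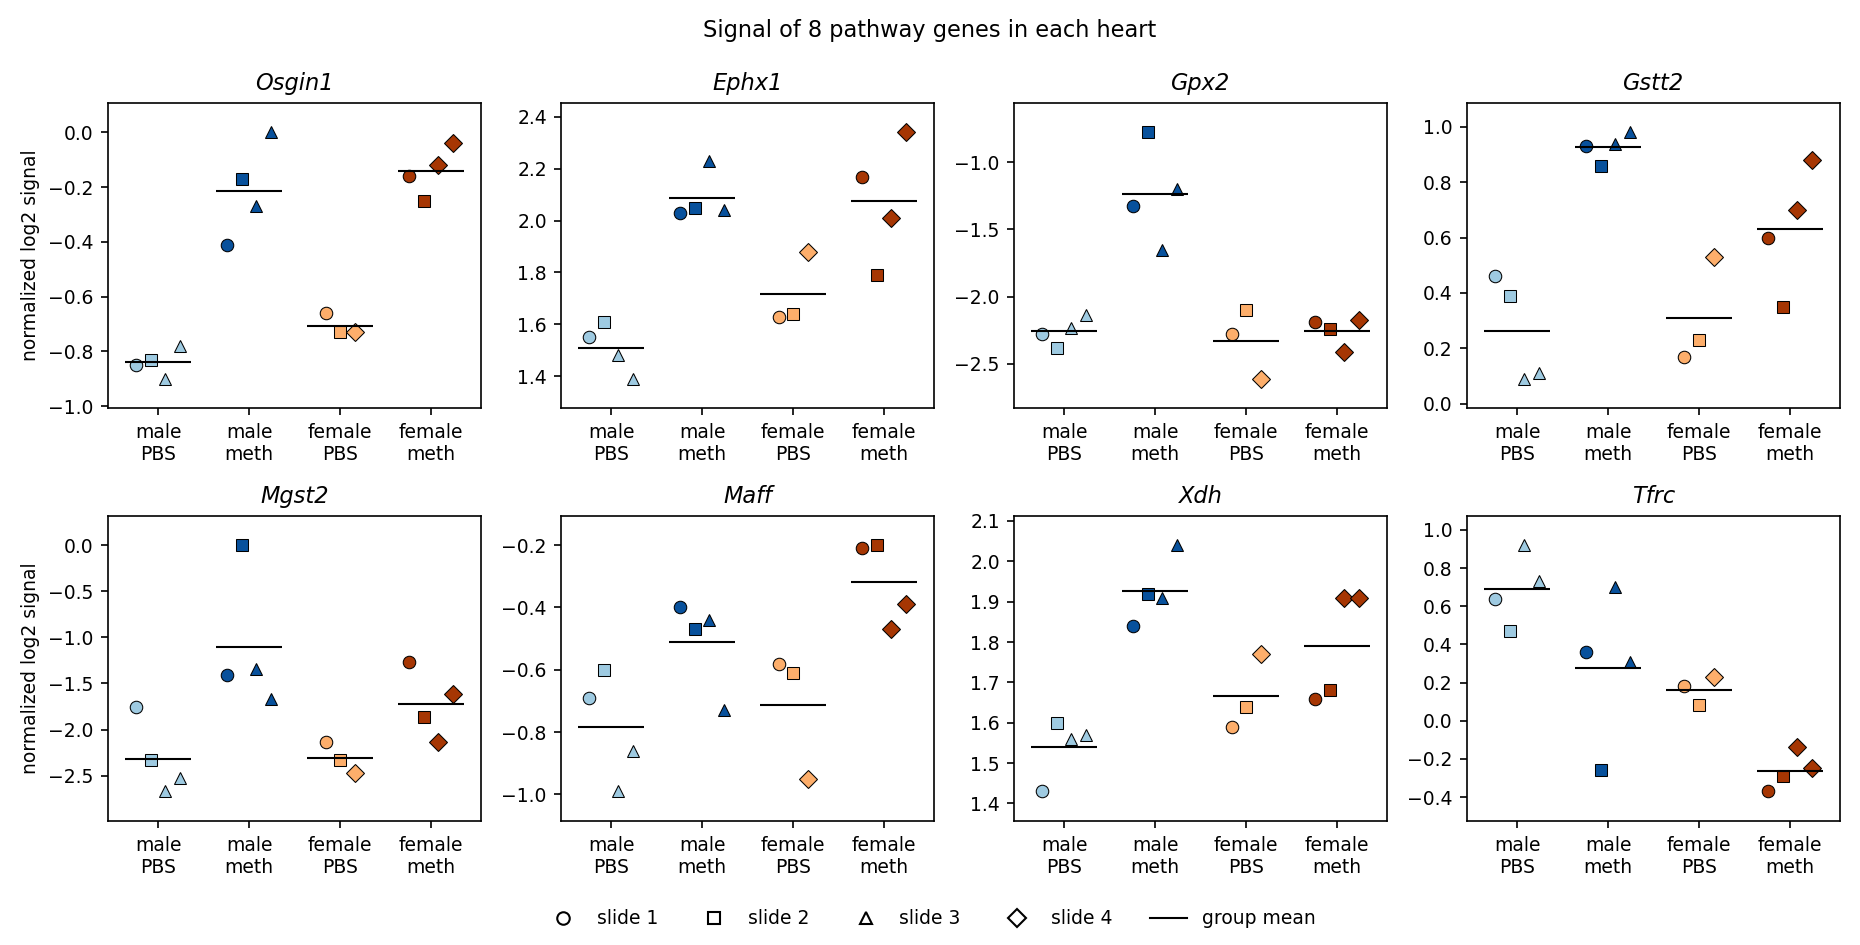
Normalized log2 signal (y axis) of 8 pathway genes in each heart, by group (x axis); points are arrays, shapes slides and bars group means. Osgin1 separates meth from PBS in both sexes and Gpx2 in males alone, with a difference between the sexes that did not pass (adjusted p = 0.286). Tfrc is lower with meth on average, with groups apart in females and overlapping in males.

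Markers of other tissues moved with meth and are given beside these results. In bulk RNA fewer cells of a type and less RNA per cell cannot be told apart. Airway secretory markers, 7 of 8 on the array and 2 above background on all 15 arrays, were led by Scgb3a1 in mean log2 signal over them. In meth males Bpifa1 was the brightest, with a mean of 4.83 beside 3.58 for Scgb3a1. The markers summed to -0.71, -0.88, -0.89 and -0.81 in PBS males and 5.68, 7.40, 5.06 and 5.99 in meth males. In females they summed to 0.70, 1.62 and 1.11 with PBS and 1.87, 0.18, 0.30 and 1.96 with meth. So all meth males were far above the PBS males, and the female sums overlapped. Scgb1a1, the brightest of these genes in PBS females, was at -1.48 there (adjusted p = 0.311). Gene by gene, 6 of 7 were above 0 in females (median 0.49), and Bpifa1 (4.77, adjusted p = 0.0112) and Scgb3a1 (1.13, adjusted p = 0.36) were higher in every meth female than in any PBS female. All 7 of these genes rose in males and 1 in females.

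White fat markers, 6 of 6 on the array and led by Cfd, summed to 5.94, 4.75, 4.25 and 4.61 in PBS males and 6.25, 7.48, 6.05 and 5.13 in meth males. In females the sums were 5.01, 5.16 and 4.81 with PBS and 6.68, 6.08, 6.07 and 6.57 with meth, a clear gap, while the male sums overlapped. Gene by gene 5 of 5 tested were above 0 in each sex, with 1 past the threshold in males, 0 in females and 3 on average. Lep was well above background on 1 array. Liver markers, 7 of 8 on the array and led by Ahsg, with Fga above background on none, summed to 1.65, 1.60, 1.44 and 1.48 in PBS males and 2.62, 3.34, 2.33 and 2.22 in meth males. Females were at 1.77, 2.04 and 2.20 with PBS and 3.07, 2.42, 2.47 and 3.08 with meth. The higher sums came from Ahsg and Cyp2e1, which were higher in every meth heart than in any PBS heart of the same sex. Of 5 liver markers tested, 3 had a log2 fold change above 0 in males and 2 in females (median 0.18 and -0.22). In females Alb, Apoa2 and Fgb were at -0.95, -0.22 and -0.85, none past the threshold. Among the 5, 1 rose past the threshold in males, 0 in females and 2 on average.

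Red blood cell markers, 6 of 8 on the array and led by Hba-a1, with Epb42 above background on none, summed to 8.30, 8.05, 8.12 and 8.33 in PBS males and 8.81, 9.56, 7.92 and 8.24 in meth males. Females were at 7.93, 8.32 and 7.99 with PBS and 8.85, 8.15, 8.46 and 9.27 with meth, with overlap in both sexes. Gene by gene 5 of 5 tested were above 0 in each sex (median 0.43 in males and 0.61 in females), none past the threshold. Airway ciliated markers summed to 0.68 to 1.28 in PBS males and 1.25 to 1.75 in meth males, and to 1.46 to 1.54 and 1.42 to 1.73 in females. Tppp3, the brightest of them, was at 0.04 in males, with means of 0.90 with PBS and 0.95 with meth. The mean of the male sums was 1.03 with PBS and 1.44 with meth, so Tppp3 did not set that difference. Of 5 ciliated markers tested in males, 5 were above 0 (median 1.56) and 2 rose, Foxj1 (3.48, adjusted p = 0.000141) and Dynlrb2 (3.90, adjusted p = 0.000151), while in females 2 of 5 were above 0 and 0 passed with limma, adjusted or unadjusted. Leukocyte markers (led by Lyz2, 2.72 to 3.20 against 2.78 to 3.28 in males and 2.93 to 3.26 against 2.60 to 3.62 in females), brown fat markers (Cidea, 5.28 to 6.36 against 5.12 to 6.39, and 5.06 to 5.48 against 5.29 to 5.51) and skeletal muscle markers (Myh4, 7.91 to 8.11 against 7.57 to 8.03, and 7.30 to 7.87 against 7.03 to 8.01) overlapped between PBS and meth. The skeletal muscle sum was mostly Myh4, and Tnni2 fell in males (-0.64, adjusted p = 0.0243, and 0.0815 with the replicate block).

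Array 2 of the trial 1 meth males had the highest sum of its group for the airway secretory, white fat, liver and red blood cell markers. The same heart had the highest value of its group for Mt2, Mt1, Hmox1, Gpx1, Gsta3, Mgst1, Ftl1, Gpx2 and Mgst2 and the lowest for Tfrc. It was also highest for members without a rise in males, such as Sod1 (7.24), Txn2 (3.64), Prdx3 (4.92) and Fth1 (8.71). For Keap1 (2.32) and Nqo1 (1.98) it was lowest. Being highest thus did not single out the genes that were higher with meth, and its share of all probes was not computed. Without this heart the male value of Mt2 was 0.85 (adjusted p = 0.0873). The male calls of Osgin1 and Gpx2 held without any single array, with adjusted p of at most 0.0209 and 0.0436. Among meth females arrays 1 and 4 were above arrays 2 and 3 for the same sums. They were also above them for Hmox1, Gpx1, Ftl1 and Ephx1, but not for Mt2, Mt1, Nfe2l2 or Mgst1. The part of these other tissues in the values of the antioxidant genes was not tested.

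Arrays measure RNA, and no enzyme activity, glutathione level or protein was measured here. All trial 2 arrays came from males, so differences between the sexes rest in part on how the trial was modelled.

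**Figure D5:**
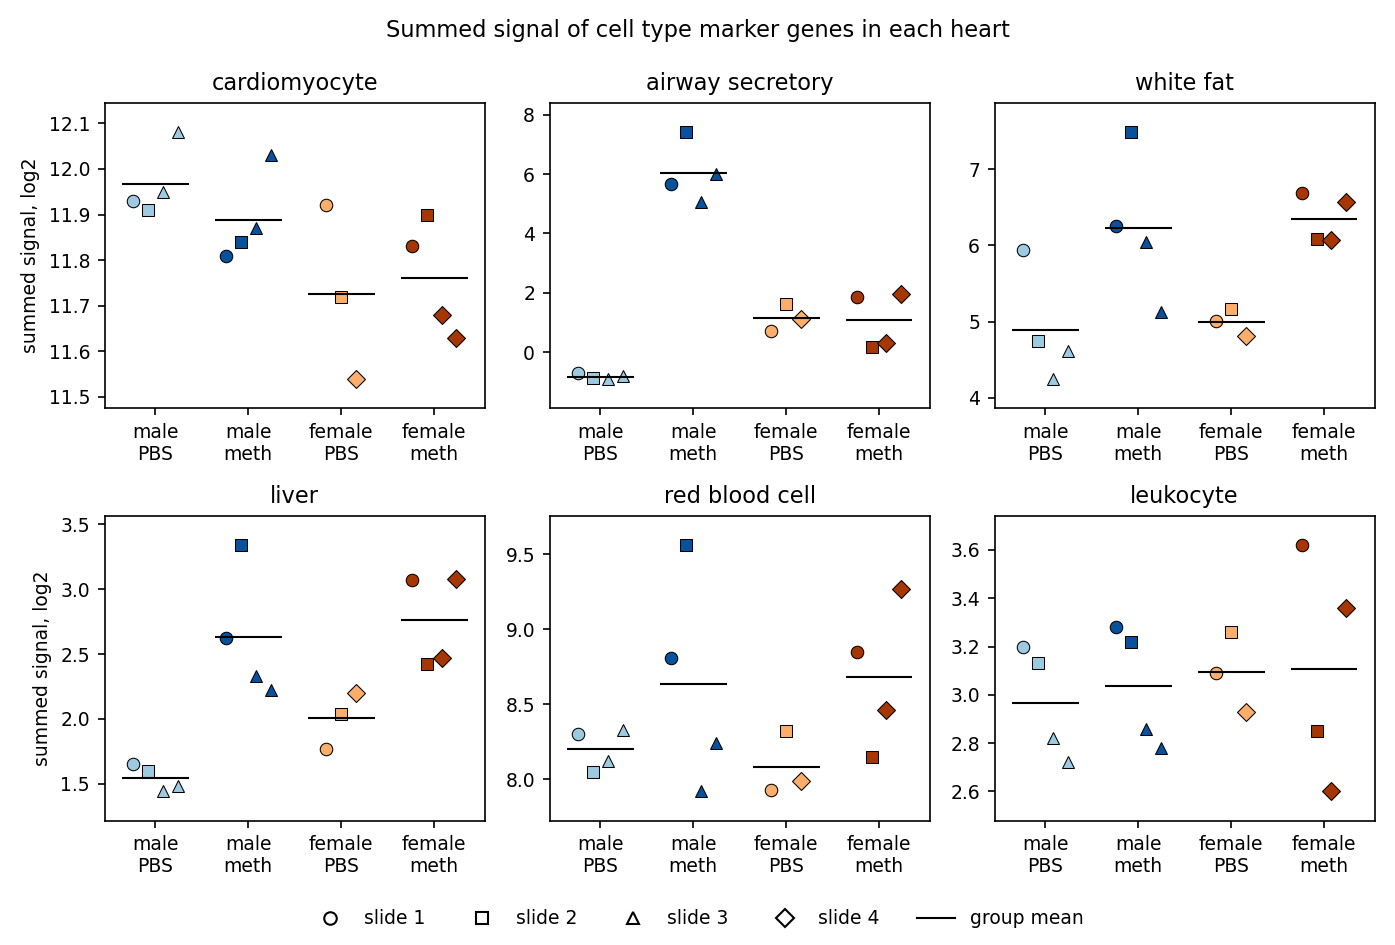
Summed signal of cell type marker genes (y axis, log2) in each heart, by group (x axis); points are arrays, shapes slides and bars group means. Airway secretory markers are at 5.06 to 7.40 in meth males and at most 1.96 elsewhere, while cardiomyocyte markers stay between 11.54 and 12.08.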

How the data were processed

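RNA of 15 hearts, 1 per array, was labelled with Cy3. The authors extracted the deposited spot values with Feature Extraction (9.1 in the labels, 10.5.1.1 per the file headers); they are background-subtracted intensity, not normalized between arrays. The deposited value table holds log2 values of the same arrays, equal to log2 intensity plus a constant per array. Each array has 45018 spots, 43379 of them non-control, with 0 saturated; 45 to 88 outlier spots per array were left out. Spots were averaged per probe (41174), log2 was taken and each array's 75th percentile subtracted. A probe was tested if 3 or more arrays showed it well above background (28358 probes, 14220 genes); 26918 probes were named through RefSeq accessions. limma 3.58.1 (R 4.3.3) fitted 4 groups and the trial over all 15 arrays, two-sided, with Benjamini-Hochberg adjustment over all probes. Correlations used 100000 permutations (scipy 1.17.1, Python 3.11.15), exact within a sex; pandas 2.3.3 and matplotlib 3.10.9 made tables and figures. A gene is given by its brightest probe; 10 members had several tested probes, and for 3 the probes differed across the threshold. Of the 55 member probes 52 were tested.

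Every array is printed for members past the threshold in any of 5 comparisons, for the 8 lowest unadjusted p in each sex, and for Nfe2l2, Keap1, Hmox1, Nqo1, Mt1 and Mt2; pathway genes are named when past the threshold, with at most 4 examples a list by lowest p. The members and lists were chosen with earlier results of these data known. Marker sums add linear signals before log2. The trial came from the sample titles; source names place 3 female arrays in another trial, which was an alternative.

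Meth and PBS arrays of the same number shared a slide in all 7 pairs, and their deviations from group means correlated at 0.173 to 0.618 over 28320 probes. Only group means were subtracted, so a shared trial or slide can raise these correlations too. Arrays of unequal number were not compared, and both trial 2 male pairs were on slide 3. Whether equal numbers pair the arrays was thus not shown, and the replicate block is 1 alternative among others. Array 4 of the meth females has no PBS partner, so it adds nothing to the response in that block. Other alternatives were quantile normalization, a median shift, normexp background correction (offset 50, on median pixel signal), the authors' table, no filter or all 15 arrays above background, outlier spots kept, no trial term, slide as a block, the mean over a gene's probes, the methods' t-test, single trials and each array left out; leaving out slide 4 and fitting females by slide were chosen after seeing the data. Protein sequences and cell-level data were not used here.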

Additional observations from a re-analysis of the deposited data

Results flagged for a closer look

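Of 114 groups of 4 arrays among the 38 members, 3 held an array far from the others by the gap to its nearest neighbour over the group's range (past Dixon's critical value), and chance gives about 1 in 20 such groups. Gclc in PBS males: array 1 of trial 1 was at 0.82 and the others at 0.76 to 0.77 (ratio 0.859). Gclm in meth females: array 3 was at -1.36 and the others at -1.30 (ratio 0.858). Gsta3 in PBS males: array 1 of trial 1 was at 2.57 and the others at 2.33 to 2.37 (ratio 0.849).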

How the results depend on the processing

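The count of members past the threshold changed with several choices, and the cause of each change was not tested unless stated. In males the 1 member became 2 with the mean over a gene's probes and with the slide as a fixed block (Gsta3 joins Mt2), and 0 with the replicate block, with the methods' t-test paired or unpaired and with males of trial 1 or of trial 2 only, which use fewer arrays. In females the 0 became 2 with the filter on all 15 arrays and with the mean over probes, 1 with a median shift and with the trial from the source name label, and 3 with the slide as a fixed or random block. On average over the sexes the 3 became 5 with the mean over probes and with the slide as a fixed or random block, 4 with the filter on all 15 arrays, a median shift, quantile normalization and the source name trial, and 1 with normexp correction, no filter, no trial term, the replicate block and without slide 4. Between PBS hearts the 0 became 1 (Mgst1) with the mean over probes, a median shift and the slide as a fixed or random block. Leaving out single arrays gave 0 to 1 members in males, 0 in females, in the difference and between PBS hearts, and 1 to 5 on average. The correlation of Mt1 and Mt2 was 0.37 after group means were subtracted, 0.75 with quantile normalization and 0.81 with a median shift. For the genes called in a comparison, and Nfe2l2, Hmox1, Mt1 and Mt2 in each sex and on average, all 843 values under alternatives kept their direction; 625 kept their side of the threshold, 206 fell short of it and 12 passed it. A median shift moved the median of all probes from -0.02 to -0.12 for the difference between the sexes, from 0.00 to 0.08 in females and from -0.03 to 0.09 between PBS hearts. Among all probes called in females 58 were higher and 157 lower, against 73 and 51 after a median shift, 20 and 7 after normexp correction and 49 and 83 after quantile normalization. On average these were 319 and 432, against 351 and 284 after a median shift and 83 and 28 after normexp correction. Counts of all probes called moved as well. In males 314 became 177 with no filter, 53 with normexp correction, 157 with the replicate block, 525 and 587 with the slide as a fixed and a random block, 85 and 101 in trial 1 and trial 2, and 0 and 18 with the methods' t-test paired and unpaired. In females 215 became 124 with a median shift, 132 with quantile normalization, 91 with no filter, 61 with no trial term, 27 with normexp correction, 101 with the replicate block, 411 and 517 with the slide as a block, 49 without slide 4, 64 on slides 1 and 2 and 0 with the methods' t-test. For the difference 39 became 12 with the filter on all 15 arrays, 14 with normexp correction, 0 with the replicate block, 73 with the slide as a random block and 2 without slide 4. On average 751 became 421 with no filter, 417 with no trial term, 111 with normexp correction, 1253 and 1338 with the slide as a block and 440 without slide 4. Between PBS hearts 136 became 58 with no filter, 21 with normexp correction, 310 with the slide as a random block, 236 with the source name trial and 81 without slide 4. With single arrays left out the counts of all probes ran from 119 to 309 in males, 38 to 205 in females, 28 to 49 for the difference, 402 to 746 on average and 42 to 153 between PBS hearts, so the shares of all probes beside the member counts are unsteady too. The unadjusted counts of members, 7 in males and 9 in females, ran from 3 to 8 and from 5 to 12 with single arrays left out, and were 3 and 3 with normexp correction and 8 and 16 with a median shift.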
